A study of Homo sapiens with 10 samples.

Results

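The genes described here encode the subunits of the mitochondrial respiratory chain and ATP synthase. They were the protein-coding genes of the read count files whose symbol starts with NDUFA, NDUFB, NDUFC, NDUFS, NDUFV, SDHA, SDHB, SDHC, SDHD, UQCR, COX4, COX5, COX6, COX7, COX8, ATP5F, ATP5M, ATP5P or MT-, without the assembly factors named NDUFAF and SDHAF. The rule gave 102 of the 60623 gene IDs in the files, of which 89 are nuclear and 13 mitochondrial (MT-). A further 195 pseudogenes, 22 mitochondrial tRNAs and 2 mitochondrial rRNAs shared the prefixes and were left out. The nuclear members comprise 38 genes of complex I, 4 of complex II, 9 of complex III, 19 of complex IV and 19 of complex V, with NDUFA4 and NDUFA4L2 placed in complex IV. The mitochondrial members comprise 7 genes of complex I, 1 of complex III, 3 of complex IV and 2 of complex V.

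Complexes I to IV pass electrons from NADH and succinate to oxygen, all but complex II pump protons across the inner mitochondrial membrane, and complex V uses the returning protons to make ATP. Complex II is made of nuclear subunits alone, while the other complexes join subunits from both genomes, so that their assembly draws on transcription in the nucleus and in the mitochondrion. The mitochondrial mRNAs are cut from long transcripts that cover almost the whole circular genome, and MT-ND6 is the only one on the strand opposite to the others. MYC is known to activate genes of mitochondrial biogenesis in many cell types.

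Messenger RNA was measured in A375, a human melanoma cell line, by sequencing poly(A)-selected RNA with a kit that keeps the strand. Experiment 1 held 4 libraries after transfection with small interfering RNA (siRNA) against PHF10, a subunit of the nucleosome remodelling complex PBAF, and 2 controls. Experiment 2 held 2 libraries labelled as cMyc knockdown, called MYC-labelled here, and 2 controls of its own. The protocol gives 1 collection time, 72 h after transfection. The controls of both experiments carry the tag "no treatment", while the protocol speaks of a control siRNA, so that what they received is not clear from the labels. The labels do not say whether the libraries of a group came from separate cultures, so that p-values measure the spread between these libraries, which may be technical. In bulk RNA, fewer cells of a kind and less RNA per cell cannot be told apart.

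Libraries held 20.5 to 38.4 M reads in genes. PHF10 had 16.1, 18.0, 15.0 and 15.7 CPM (counts per 1000000 reads in genes, after scaling) in PHF10 knockdown libraries, against 40.1 and 36.6 CPM in controls of experiment 1 (log2 fold change -1.24, SE 0.10, adjusted p = 0.00105). MYC had 16.7 and 13.3 CPM in MYC-labelled libraries, against 15.0 and 26.5 CPM in their controls, and the groups overlapped (log2 fold change -0.46, SE 0.39, adjusted p = 0.688). The mRNA thus did not separate the groups of experiment 2, whose libraries keep the name of their label. Of the melanoma markers, SOX10 had at least 528 CPM in every library, while the pigmentation genes MLANA and TYR had at most 0.0447 and 0.0571 CPM. Of the 12 melanoma markers, 10 were tested after PHF10 knockdown and 2 fell, S100B and ERBB3 (adjusted p = 0.00924 and 0.0211). Their summed level was 1174 to 1597 CPM in PHF10 knockdown libraries, against 2143 and 2238 CPM in controls of experiment 1. The part of this difference in the results below was not tested.

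Short stretches show how close the members lie to each other and what their promoters hold. The coding sequences of MT-ATP8 and MT-ATP6, the 2 mitochondrial subunits of ATP synthase, share 46 bases (GRCh38, chrM:8527-8572, + strand, from the GENCODE release 29 transcripts). A read that falls in both genes is counted for neither, whether it lies inside this stretch or only reaches into it. The stretch makes up 22.2% of the bases of MT-ATP8. Bases shared with MT-ATP8 or MT-CO3 make up 6.90% of MT-ATP6. These are shares of bases and not of reads, and the share of reads lost can be larger. How many reads were lost was not tested. The capitals mark the start codon of MT-ATP6.
end of MT-ATP8 and start of MT-ATP6: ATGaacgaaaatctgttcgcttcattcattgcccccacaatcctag

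Of the nuclear members, 70 of 89 had an entry in the RefSeq promoter table (GRCh38.p14), with 83 windows of 300 bases, from 250 before to 50 after the start. Letters of 3 factors known to bind promoters of respiratory genes were searched on both strands. GCATGCGC, a core of the NRF1 site, stood in 18.1% of the member windows and in 3.05% of all 35116 windows. CCGGAAG, an ETS site such as GABP binds, stood in 26.5% of the member windows and in 10.3% of all windows. AAGATGG, part of a YY1 site, stood in 22.9% of the member windows and in 5.84% of all windows. At least 1 of these was found for 40 of the 70 genes. CACGTG, the E-box letters that MYC with MAX can bind, stood in 8.43% of the member windows and in 7.26% of all windows, and TGACGTCA, the cyclic AMP response element (CRE), stood in 6.02% and in 1.85%. The promoters of 3 genes that fell in experiment 2 alone, described below, are shown, with all 5 motifs in capitals.
ATP5MC1 (chr17:48892537-48892836, + strand; 1 CRE and 1 E-box): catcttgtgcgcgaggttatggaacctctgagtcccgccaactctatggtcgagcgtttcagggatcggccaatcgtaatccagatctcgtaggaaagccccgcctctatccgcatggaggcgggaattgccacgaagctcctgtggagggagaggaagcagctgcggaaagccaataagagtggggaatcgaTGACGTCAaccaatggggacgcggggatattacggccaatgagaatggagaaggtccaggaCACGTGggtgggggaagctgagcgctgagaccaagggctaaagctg
SDHB (chr1:17053983-17054282, - strand; NRF1, ETS, CRE and YY1 letters in this order): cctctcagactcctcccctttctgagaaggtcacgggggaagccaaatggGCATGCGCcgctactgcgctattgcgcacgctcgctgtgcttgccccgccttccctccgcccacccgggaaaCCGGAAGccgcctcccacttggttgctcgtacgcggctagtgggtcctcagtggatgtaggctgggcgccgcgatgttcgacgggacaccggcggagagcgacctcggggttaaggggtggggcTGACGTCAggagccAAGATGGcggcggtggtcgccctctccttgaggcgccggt
SDHD (chr11:112086623-112086922, + strand; overlapping NRF1 letters on both strands, then ETS letters on the reverse strand): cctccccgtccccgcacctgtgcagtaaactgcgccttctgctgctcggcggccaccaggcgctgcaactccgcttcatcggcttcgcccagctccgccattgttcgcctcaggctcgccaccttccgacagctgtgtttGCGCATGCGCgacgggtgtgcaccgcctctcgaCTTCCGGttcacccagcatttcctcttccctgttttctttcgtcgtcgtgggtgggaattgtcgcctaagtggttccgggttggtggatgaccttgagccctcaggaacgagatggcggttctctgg
A match describes these letters only and says nothing of binding.

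Mitochondrial mRNAs made up 4.05%, 5.37%, 6.40% and 6.16% of all gene reads in PHF10 knockdown libraries, against 4.0% and 5.49% in controls of experiment 1. They made up 4.20% and 4.10% in MYC-labelled libraries, against 4.02% and 3.88% in controls of experiment 2. The nuclear members together held 0.629%, 0.784%, 0.907% and 0.792% in PHF10 knockdown libraries, against 0.664% and 0.807% in their controls. In experiment 2 they held 0.641% and 0.628% in MYC-labelled libraries, against 0.661% and 0.656% in controls. Neither share separated the groups of experiment 1, and in experiment 2 the mitochondrial share was higher and the nuclear share lower in both labelled libraries than in both controls.

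Per kilobase of annotated exon, the median member that passed the count filter had 2923 CPM for mitochondrial genes and 24.8 CPM for nuclear genes in PHF10 knockdown libraries, against 2744 and 23.9 CPM in controls of experiment 1. In both groups MT-CO1, the catalytic subunit of complex IV, stood highest, with 9237 CPM per kb in PHF10 knockdown libraries and 7750.5 CPM per kb in controls. MT-ND6 was lowest of the mitochondrial mRNAs, with 266 CPM per kb in PHF10 knockdown libraries, against 376 CPM per kb in controls. Among nuclear members ATP5F1B, the catalytic beta subunit of ATP synthase, was highest, with 369 CPM per kb in PHF10 knockdown libraries, against 339 CPM per kb in controls. Exon unions include rarely used exons, so that nuclear values per kilobase are low estimates.

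Of the 102 members, 95 passed the count filter, 82 nuclear and 13 mitochondrial. COX4I2, COX6A2, COX7A1, COX8C and the readthrough gene NDUFC2-KCTD14 had 0 reads in all 10 libraries, which allows up to 0.0108 CPM (3 counts of 277 M gene reads, counting error only). COX4I2 is known from lung, COX6A2 and COX7A1 from heart and skeletal muscle and COX8C from testis. Their common counterparts were all present. COX4I1, for example, had 230.1, 303, 373 and 323 CPM in PHF10 knockdown libraries, against 237 and 321 CPM in controls of experiment 1. ATP5MF-PTCD1 and ATP5MGL had under 30 reads in all and did not pass. Some nuclear members share exons with other genes on the same strand, where reads are counted for neither gene. The overlap covers 34.5% of the exons of COX8A (27554 reads in all libraries), 33.8% of NDUFB8 (4049 reads), 32.3% of NDUFA7 (178 reads), 30.9% of COX6B2 (62 reads), 28.4% of NDUFV2 (284 reads) and 21.0% of NDUFA13 (1251 reads), and a smaller part of the other nuclear members that passed. Members with a like overlap thus had both high and low counts, and how many reads were lost was not tested.

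Knockdown of PHF10 changed no member past the threshold. In edgeR's quasi-likelihood test over all 10 libraries, 0 of 82 nuclear and 0 of 13 mitochondrial members had a Benjamini-Hochberg adjusted p under 0.05, while 6.34% of all 18450 genes tested did. At an unadjusted p under 0.05, 2 nuclear members were higher, 1 was lower and no mitochondrial member passed. The median log2 fold change was 0.06 for nuclear members, with 58 of 82 above 0, and 0.12 for mitochondrial members, with 12 of 13 above 0. The median of all genes was 0.02, with 52.1% above 0. The fit of experiment 1 alone called 0 members and 0.280% of 17849 genes.

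The precision bounds what could be seen. In the fit of all 10 libraries, the 95% interval of the fold change lay within 0.5 of 0 on the log2 scale for 37 of 82 nuclear members. It did so for 0 of 13 mitochondrial members. It lay within 1 for 79 nuclear and 11 mitochondrial members.

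The medians depended on single control libraries. Without control replicate 1 the nuclear median was -0.11 and the mitochondrial median -0.16. Without control replicate 2 they were 0.25 and 0.43. Without PHF10 knockdown replicate 3 they were -0.02 and 0.02. With the mean of the type I interferon genes as a covariate they were 0.02 and 0.04.

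**Figure D1:**
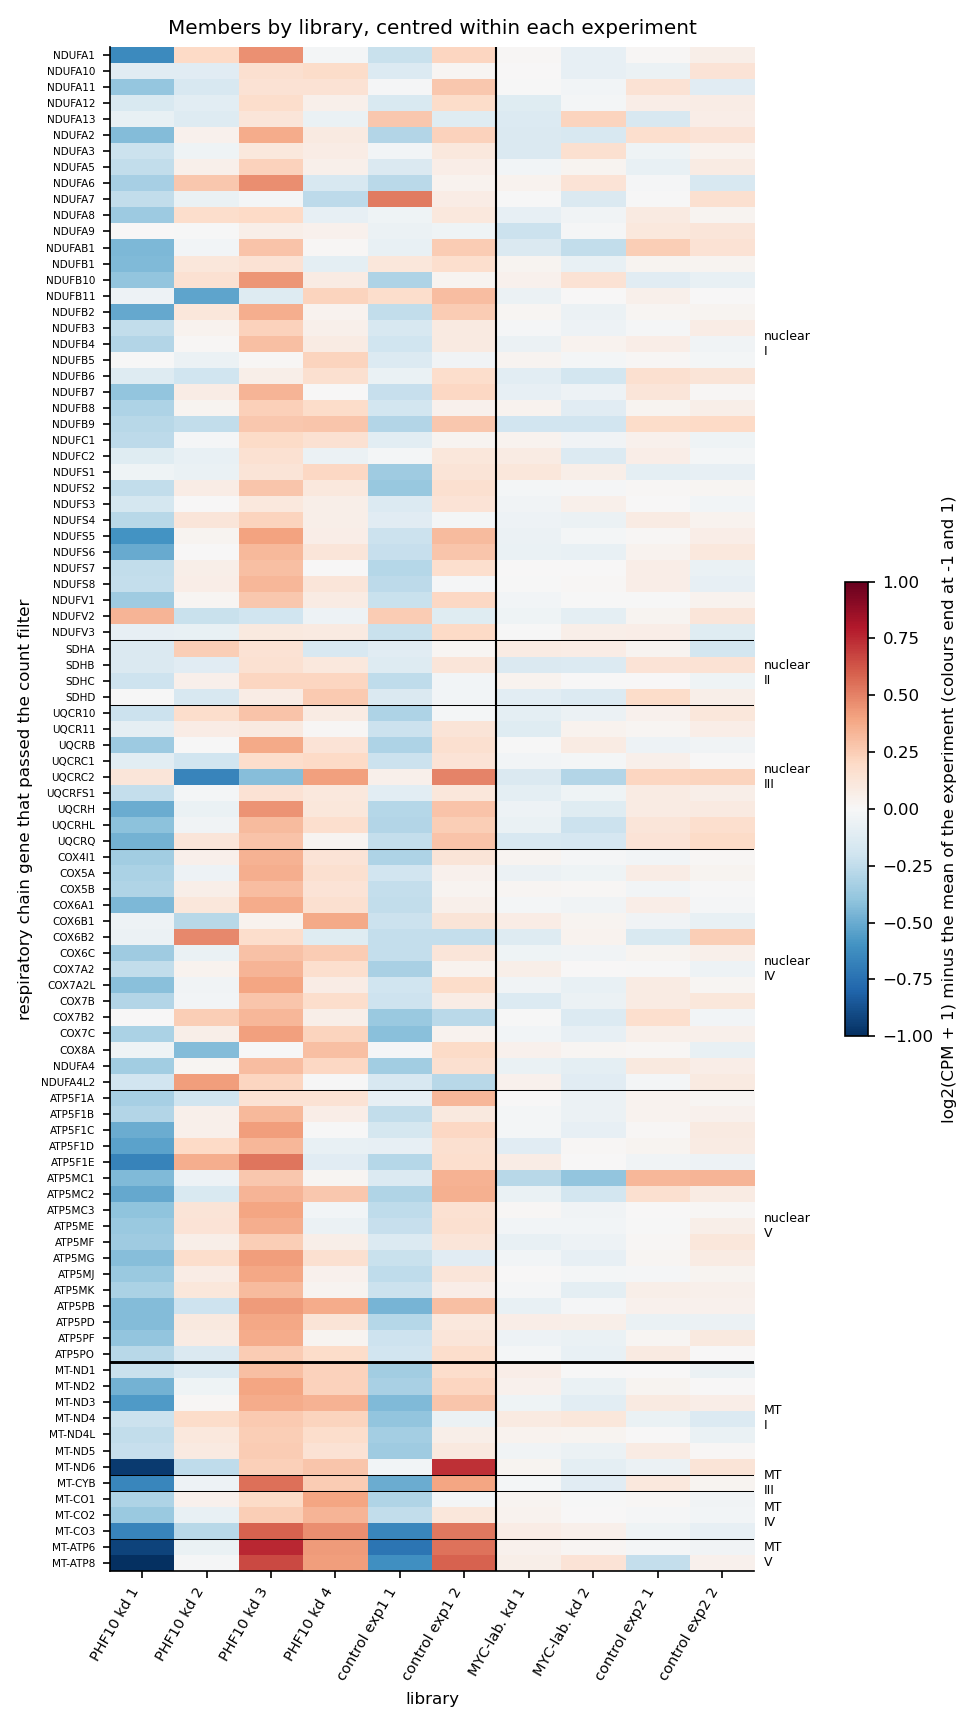
log2(CPM + 1) of the 95 members that passed the count filter (rows, by genome and complex) in the 10 libraries (columns), minus the mean of the gene over its experiment; colours end at -1 and 1. PHF10 knockdown replicate 1 and control replicate 1 of experiment 1 are low and PHF10 knockdown replicate 3 is high over most rows, while experiment 2 is nearly flat, with ATP5MC1 and UQCRC2 low in both labelled libraries.

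The members varied together between libraries of the same group. Among the PHF10 knockdown libraries, replicate 1 was the lowest for 67 of 82 nuclear and 13 of 13 mitochondrial members, against 28.9% of all genes. Replicate 3 was the highest for 65 nuclear and 10 mitochondrial members, against 24.2% of all genes. Control replicate 1 lay below control replicate 2 for 77 nuclear and 13 mitochondrial members, against 49.6% of all genes. The median log2 difference between PHF10 knockdown replicates 3 and 1 was 0.60 for nuclear, 0.86 for mitochondrial and 0.01 for all genes tested. In MYC-labelled libraries, replicate 2 differed from replicate 1 by -0.02 and -0.03 (nuclear and mitochondrial medians).

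Interferon genes moved across the same libraries. The mean log2 CPM of 33 type I interferon genes was 7.67, 7.36, 3.28 and 4.71 in PHF10 knockdown libraries, against 8.02 and 4.57 in controls of experiment 1. The mean log2 CPM of mitochondrial members in the same libraries was 10.55, 11.05, 11.47 and 11.38 in PHF10 knockdown libraries, against 10.68 and 11.36 in controls. That of nuclear members was 5.41, 5.72, 5.95 and 5.78 in PHF10 knockdown libraries, against 5.51 and 5.80 in controls. Reads in no annotated gene on the counted strand made up 13.8%, 12.3%, 10.1% and 10.6% in PHF10 knockdown libraries, against 12.1% and 9.93% in controls. They include reads on the strand opposite to a gene. In each group of experiment 1 the library with the highest interferon level was the lowest in both member classes. In experiment 2 the interferon mean stayed between 2.88 and 3.11. The part of either measure in the variation of the members was not tested.

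Among the mitochondrial mRNAs, the neighbours MT-ATP8 and MT-ATP6 and the distant MT-ND6 varied most between libraries of experiment 1. MT-ATP6 had 2016, 3643, 6441 and 5122 CPM in PHF10 knockdown libraries, against 2308 and 5561 CPM in controls of experiment 1. MT-ATP8 had 134, 276, 441 and 371 CPM in PHF10 knockdown libraries, against 181 and 419 CPM in controls. In both genes each group spans low and high libraries and the groups overlap (log2 fold changes 0.13, SE 0.44, and 0.02, SE 0.43).

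MT-CO3, a core subunit of complex IV, had 2640.0, 3444, 6263 and 5736 CPM in PHF10 knockdown libraries, against 2655 and 6009.7 CPM in controls. MT-CYB, the mitochondrial subunit of complex III, had 2601, 3963, 5991 and 4876 CPM in PHF10 knockdown libraries, against 2901 and 5394 CPM in controls. The highest library exceeded the lowest of experiment 1 by 2.30-fold for MT-CYB, 2.37-fold for MT-CO3, 3.20-fold for MT-ATP6 and 3.28-fold for MT-ATP8. For MT-ND4L, MT-ND5, MT-ND1, MT-ND4, MT-CO1 and MT-CO2 this ratio was 1.5 to 1.64. In experiment 2 it was 1.04 to 1.30 over all 13.

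MT-ND4, a proton-pumping subunit of complex I, had 8518, 11250.1, 11838 and 11509.5 CPM in PHF10 knockdown libraries, against 7495 and 9502 CPM in controls (log2 fold change 0.34, SE 0.21, adjusted p = 0.380). PHF10 knockdown replicate 1 lay between the controls and the other replicates above them. MT-CO1 had 10744, 13649, 15126 and 17451 CPM in PHF10 knockdown libraries, against 10772 and 13129.9 CPM in controls (log2 fold change 0.25, SE 0.23). MT-CO2, MT-ND1, MT-ND2, MT-ND3, MT-ND4L and MT-ND5 had log2 fold changes of 0.09 to 0.21.

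**Figure D2:**
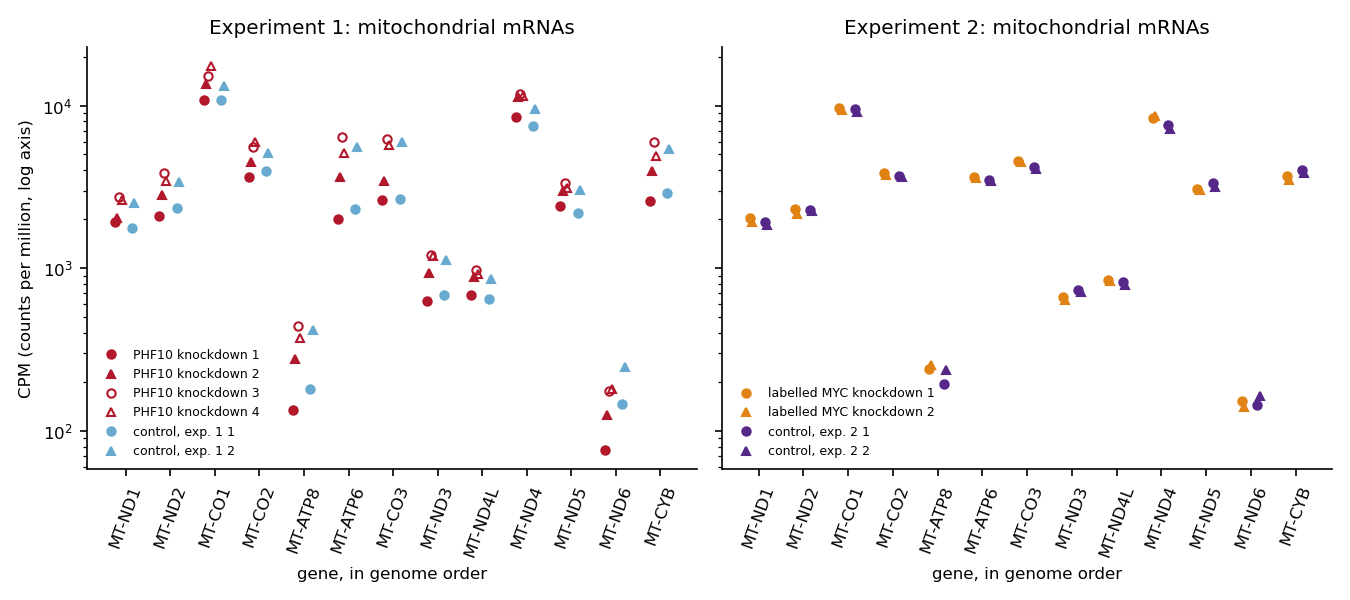
CPM (log axis) of the 13 mitochondrial mRNAs in genome order, with 1 point per library, for experiment 1 (left) and experiment 2 (right). In experiment 1 the libraries of both groups spread from 1.5-fold to 3.28-fold and overlap for every gene. In experiment 2 they lie within 1.30-fold.

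MT-ND6, the complex I subunit on the other strand, had a negative fold change, the only one of the 13 with all libraries; without control replicate 1, 10 of the 13 were negative. It had 76.3, 125, 177 and 181 CPM in PHF10 knockdown libraries, against 146 and 248 CPM in controls (log2 fold change -0.50, SE 0.32, adjusted p = 0.394). The groups overlapped in CPM. The test passed the threshold without the count filter (adjusted p = 0.0349) and with the interferon covariate (adjusted p = 0.0457), and its adjusted p was 0.272 to 0.957 when each library was left out in turn. As a share of mitochondrial mRNA, a quantity chosen after the values were seen, MT-ND6 made up 0.200%, 0.247%, 0.276% and 0.289% in PHF10 knockdown libraries, against 0.384% and 0.441% in controls of experiment 1. The 4 knockdown libraries lay below both controls. In experiment 2 the share was 0.355% and 0.332% in MYC-labelled libraries, against 0.344% and 0.405% in controls.

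The strand-specific files also hold reads on the strand opposite to each gene, which for the 12 other mitochondrial mRNAs is the strand of MT-ND6. These reads were examined after the values of MT-ND6 were seen. They made up 0.148% to 0.264% of the reads over MT-CO1, the lowest of the 13 genes in every library, and 13.3% to 22.3% over MT-ND5, which lies next to MT-ND6. Over MT-ND6 itself, opposite-strand reads were the majority, 78.2% to 89.7%. Background knowledge holds that MT-ND6 mRNA carries little or no poly(A) tail, and the libraries were selected for poly(A).

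Opposite-strand reads over all 12 genes had negative fold changes after PHF10 knockdown, with log2 values of -0.72 to -0.10 and a median of -0.35, beside 0.04 over all 8269 features tested. The 12 share transcripts and are not independent. MT-ND1, a complex I subunit, had 42.6, 44.3, 46.0 and 50.7 opposite-strand CPM in PHF10 knockdown libraries, against 71.7 and 78.9 in controls of experiment 1. In experiment 2 it had 47.7 and 47.5 in MYC-labelled libraries, against 48.3 and 51.1 in controls, so that the controls of experiment 1 stood apart from all other libraries.

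Opposite-strand reads of MT-ND1 fell (log2 fold change -0.72, SE 0.13, adjusted p = 0.0136 in edgeR), 1 of 12 genes called, where 1.75% of all features were. The call was lost without control replicate 1 (adjusted p = 0.0753), without control replicate 2 (adjusted p = 0.195) and in experiment 1 alone (adjusted p = 0.148). The groups did not overlap for MT-ND1, MT-ND2, MT-ND4L and MT-ND4, all lower, where 10.4% of all features were lower without overlap. MT-ND4 had 72.9, 89.7, 88.1 and 115.5 opposite-strand CPM in PHF10 knockdown libraries, against 121.0 and 176 in controls (log2 fold change -0.70, SE 0.19, adjusted p = 0.0666). MT-ND4L had 11.0, 11.4, 12.1 and 13.4 in PHF10 knockdown libraries, against 16.6 and 18.9 in controls (log2 fold change -0.57, SE 0.14, adjusted p = 0.0587). For MT-ND4L the 4 PHF10 knockdown libraries lay below the libraries of all other groups, 16.4 to 18.9. In MYC-labelled libraries, 0 of 12 genes were called at a background of 0.218%, and the log2 values were -0.08 to 0.17.

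**Figure D3:**
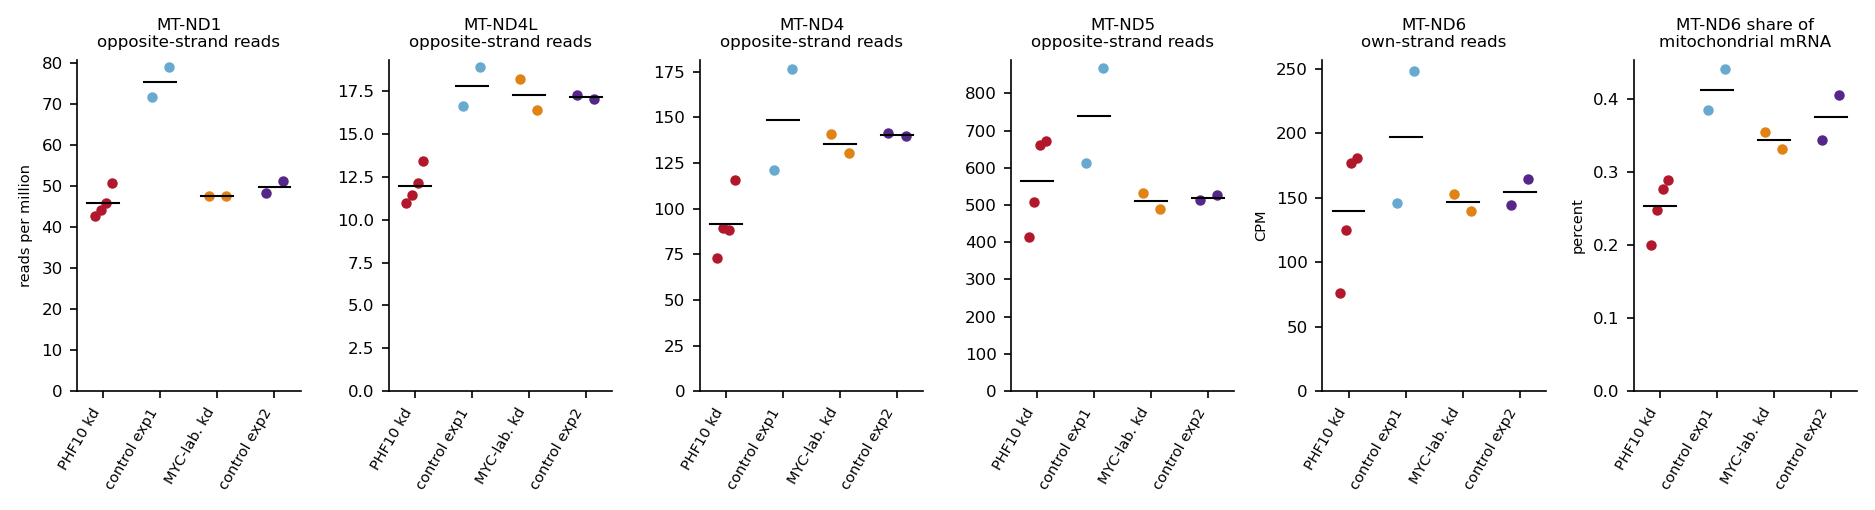
CPM of reads on the strand opposite to MT-ND1, MT-ND4L, MT-ND4 and MT-ND5, CPM of MT-ND6 on its own strand, and MT-ND6 as a percent of mitochondrial mRNA, with 1 point per library and a bar at the group mean. MT-ND1 is high in the controls of experiment 1 alone, MT-ND4L is low in the 4 PHF10 knockdown libraries alone, and the MT-ND6 share is 0.200% to 0.289% in PHF10 knockdown libraries, against 0.384% and 0.441% in their controls.

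Among nuclear members, 3 were higher in all PHF10 knockdown libraries than in both controls and 1 was lower, where 13.4% and 13.7% of all genes were. COX7B2, a complex IV paralog known from testis, had 12.8, 15.3, 16.3 and 13.4 CPM in PHF10 knockdown libraries, against 9.66 and 10.4 CPM in controls (log2 fold change 0.52, SE 0.15, adjusted p = 0.0755). Its common counterpart COX7B had 59.1, 71.4, 88.6 and 82.4 CPM in PHF10 knockdown libraries, against 62.9 and 76.9 CPM in controls (log2 fold change 0.11, SE 0.16). COX7B2 passed the threshold in DESeq2 (adjusted p = 0.0205) and with the interferon covariate (adjusted p = 0.0461), and had an adjusted p of 0.0517 to 0.294 when each library was left out in turn.

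COX6B2, a testis form of a complex IV subunit, had 3, 16, 9 and 2 reads in PHF10 knockdown libraries, against 0 and 0 in controls of experiment 1. The 30 pooled knockdown reads were 4.60-fold above a floor of 3 counts over both controls. This value holds counting error only and leaves out the uneven spread between the knockdown libraries. COX6B2 was not called in the fit of all libraries. It had 5 and 8 reads in MYC-labelled libraries, against 4 and 15 in their controls. NDUFA9, an accessory subunit near the quinone site of complex I, had 15.0, 15.0, 15.7 and 15.5 CPM in PHF10 knockdown libraries, against 14.4 and 14.5 CPM in controls (log2 fold change 0.08, SE 0.11). NDUFA7 was the one without overlap below, with 0.492, 0.689, 0.741 and 0.477 CPM in PHF10 knockdown libraries, against 1.53 and 0.864 CPM in controls (log2 fold change -0.98, SE 0.35, adjusted p = 0.135).

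A few nuclear members did not follow the common order of the libraries. UQCRC2, a core protein of complex III, had 89.8, 51.6, 61.1 and 109.9 CPM in PHF10 knockdown libraries, against 85.5 and 117 CPM in controls (log2 fold change -0.37, SE 0.27, adjusted p = 0.452). NDUFB11, in the membrane arm of complex I, had 65.0, 46.4, 61.4 and 78.6 CPM in PHF10 knockdown libraries, against 76.2 and 83.7 CPM in controls (log2 fold change -0.35, SE 0.17, adjusted p = 0.269). Both were lowest in PHF10 knockdown replicates 2 and 3, where most members were not.

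By complex, the nuclear medians of the PHF10 comparison were 0.01 for complex I, 0.11 for complex II, 0.03 for complex III, 0.14 for complex IV and 0.08 for complex V (log2 fold change). In complex II, SDHC, a membrane anchor, had 118, 142, 159 and 159 CPM in PHF10 knockdown libraries, against 114 and 134 CPM in controls (log2 fold change 0.22, SE 0.14). In complex III, UQCR10 had 26.7, 35.1, 38.0 and 32.9 CPM in PHF10 knockdown libraries, against 24.8 and 30.6 CPM in controls (log2 fold change 0.26, SE 0.15). In complex V, ATP5MG, subunit g of the membrane part, had 22.2, 34.2, 40.6 and 33.9 CPM in PHF10 knockdown libraries, against 25.7 and 27.7 CPM in controls (log2 fold change 0.29, SE 0.20). All 3 overlapped between the groups.

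Among MYC-labelled libraries against their controls, 0 of 82 nuclear and 0 of 13 mitochondrial members passed the threshold in the fit of all 10 libraries, at a background of 0.493% of 18450 genes. At an unadjusted p under 0.05, 1 nuclear member, ATP5MC1, was lower. The median log2 fold change was -0.08 for nuclear members, with 61 of 82 below 0, and 0.04 for mitochondrial members, with 8 of 13 above 0. The median of all genes was -0.01. The mitochondrial median lay above the nuclear median by 0.12, and by 0.11 to 0.14 when each library was left out in turn. In experiment 1 the same quantity was 0.06, and -0.05 to 0.18 when each library was left out. The difference between the 2 knockdowns called 0 members, where 0.385% of all genes were called.

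**Figure D4:**
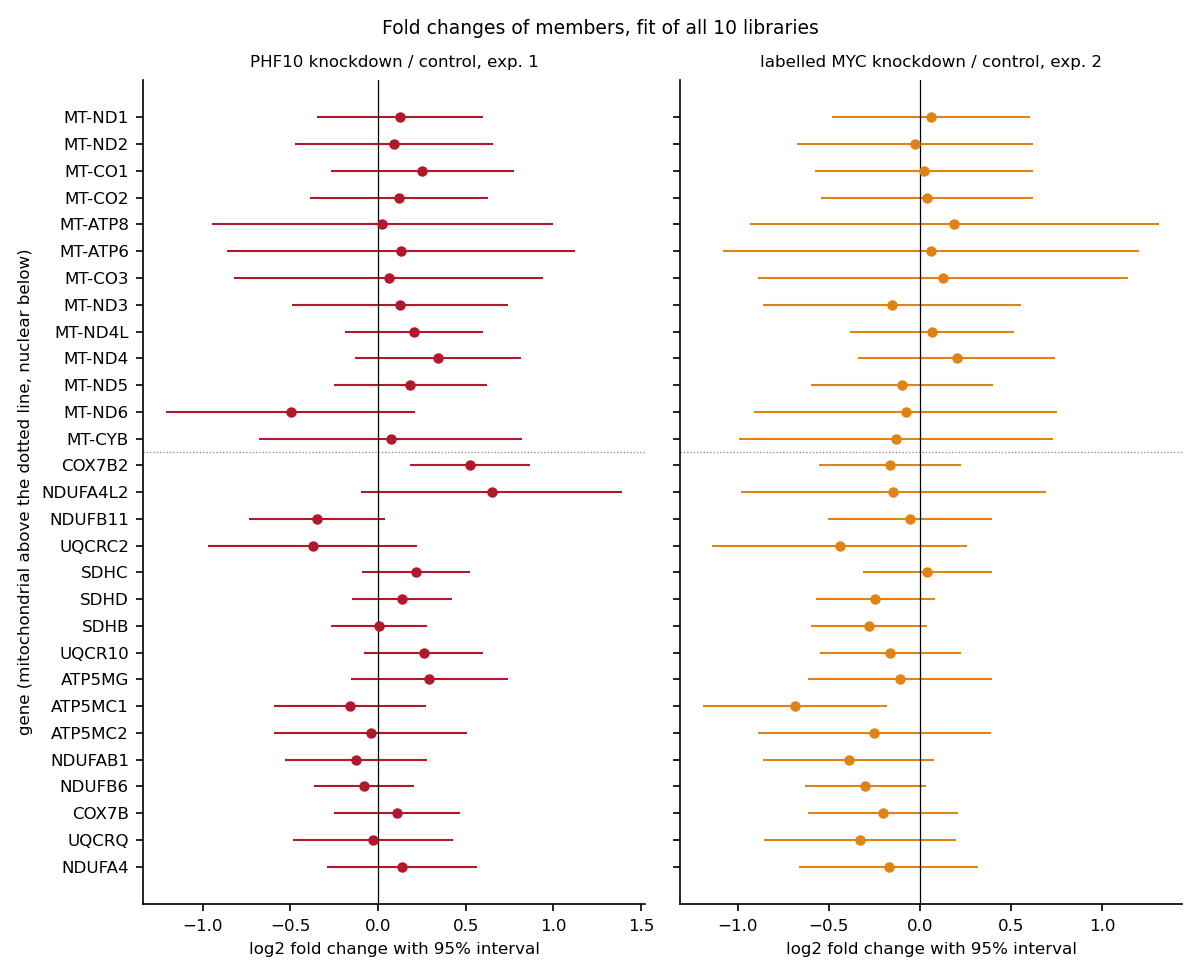
log2 fold change with its 95% interval from the fit of all 10 libraries, for the 13 mitochondrial members and 16 nuclear members chosen after their values were seen, in PHF10 knockdown against the controls of experiment 1 (left) and MYC-labelled libraries against the controls of experiment 2 (right). Of those drawn, the intervals of COX7B2 on the left and ATP5MC1 on the right exclude 0. NDUFA7 (-1.77 to -0.19) and COX6B2 (0 reads in controls), which are not drawn, also exclude 0 after PHF10 knockdown.

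The libraries of experiment 2 were much closer to each other than those of experiment 1. The biological coefficient of variation was 3.39% in experiment 2 alone, 26.7% in experiment 1 alone and 21.4% over all 10 libraries. With the spread of experiment 2 alone, 44.5% of 17481 genes were called, 21.9% higher and 22.6% lower. Of the members, 27 of 94 were called, 28.7%, a smaller share than of all genes. Of the 81 nuclear members tested in it, 5 rose and 18 fell, and of the 13 mitochondrial members 2 rose and 2 fell. Without any test, 48 of 82 nuclear members (58.5%) were lower in both labelled libraries than in both controls, where 36.0% of all genes were, and 12 (14.6%) were higher, where 33.6% were. Of the mitochondrial members 3 were lower and 6 higher. The 8 epithelial markers, among which CDH1 had at most 0.0811 CPM, summed to 182 and 186 CPM in MYC-labelled libraries, against 283 and 288 CPM in controls. Most of this sum was KRT18, with 156 and 158 CPM in MYC-labelled libraries, against 235 and 242 CPM in controls. In experiment 1 the sum was 317 to 375 CPM in PHF10 knockdown libraries, against 251 and 262 CPM in controls. The part of these markers in the results was not tested.

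ATP5MC1 had the largest fold change among the members in both fits of experiment 2. It is one of 3 genes for subunit c, the ring of ATP synthase that turns as protons pass, and its products differ from those of ATP5MC2 and ATP5MC3 only in the import sequence. ATP5MC1 had 34.7 and 31.9 CPM in MYC-labelled libraries, against 53.5 and 53.6 CPM in controls. It fell in experiment 2 alone (log2 fold change -0.67, SE 0.058, adjusted p = 5.24e-14), and with all libraries it had an adjusted p of 0.215 (log2 fold change -0.69, SE 0.23). ATP5MC2 had 147 and 136 CPM in MYC-labelled libraries, against 173 and 163 CPM in controls, and fell in experiment 2 alone (log2 fold change -0.24, adjusted p = 1.91e-05).

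ATP5MC3 had 106 and 103 CPM in MYC-labelled libraries, against 106 and 106 CPM in controls (log2 fold change -0.01, SE 0.045, adjusted p = 0.911). The promoter window of ATP5MC1, shown above, is one of 7 of the member windows with E-box letters. The other 6 genes with such letters, ATP5ME, ATP5PB, NDUFA11, NDUFA7, NDUFS7 and UQCR11, had log2 fold changes of -0.46 to 0.01 in the fit of all libraries, and none was called in experiment 2 alone. After PHF10 knockdown ATP5MC1 had 36.3, 47.9, 60.3 and 50.5 CPM, against 45.1 and 63.7 CPM in controls of experiment 1 (log2 fold change -0.16, SE 0.19, adjusted p = 0.687).

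In complex III, 5 of 9 nuclear genes fell in experiment 2 alone and 0 rose, where 22.6% of all genes fell. Of the 5, UQCRH and UQCRHL are near-copies, and a read that fits both alike was counted for neither. How far their counts are independent was not tested. UQCRC2 had 79.8 and 72.1 CPM in MYC-labelled libraries, against 103 and 103 CPM in controls (log2 fold change -0.43, SE 0.049, adjusted p = 3.03e-10). UQCRQ, a small subunit that contacts ubiquinone, had 88.3 and 87.6 CPM in MYC-labelled libraries, against 108 and 113 CPM in controls (log2 fold change -0.32, adjusted p = 9.52e-08). The others were UQCRFS1, which carries the Rieske iron-sulfur cluster, UQCRH, the hinge protein, and UQCRHL, an intronless near-copy of UQCRH.

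In complex II, the iron-sulfur subunit SDHB had 81.8 and 82.1 CPM in MYC-labelled libraries, against 99.3 and 99.6 CPM in controls (log2 fold change -0.27, SE 0.046, adjusted p = 3.31e-06). The membrane anchor SDHD had 43.7 and 42.7 CPM in MYC-labelled libraries, against 53.5 and 48.9 CPM in controls (log2 fold change -0.23, SE 0.057, adjusted p = 0.000614). Both fell in experiment 2 alone, so that 2 of 4 genes were called, where 44.5% of all genes were, 22.6% of them lower. The flavoprotein SDHA and the anchor SDHC were not called (log2 fold changes 0.17 and 0.05).

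In complex I, 7 of 37 nuclear genes fell and 3 rose in experiment 2 alone, 27.0% in all, a smaller share than the 44.5% of all genes. NDUFAB1, the mitochondrial acyl carrier protein, had 59.7 and 55.6 CPM in MYC-labelled libraries, against 78.2 and 72.9 CPM in controls (log2 fold change -0.38, SE 0.052, adjusted p = 2.8e-08). NDUFB9, NDUFA2, NDUFB6, NDUFA9, NDUFS6 and NDUFB7 also fell, by log2 values of -0.37 to -0.12. NDUFB10, NDUFS1, which carries iron-sulfur clusters, and NDUFA6 rose, by log2 values of 0.18 to 0.20.

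In experiment 2 alone, 3 of 14 nuclear genes of complex IV (21.4%) and 3 of 17 of complex V (17.6%) were called. Both shares were smaller than the 44.5% of all genes. In complex IV, COX7B and NDUFA4 fell (log2 fold changes -0.19 and -0.16). COX6B1, which links the 2 monomers of the enzyme, rose (0.12, adjusted p = 0.0262). In complex V, ATP5MC1 and ATP5MC2 fell, as given above, and ATP5PD, a peripheral stalk subunit, rose (0.14, adjusted p = 0.0150). Of the mitochondrial mRNAs, MT-ND4 had 8401 and 8574 CPM in MYC-labelled libraries, against 7552 and 7199 CPM in controls, and rose in experiment 2 alone (log2 fold change 0.21, SE 0.039, adjusted p = 1.01e-05). MT-CO3 rose as well (0.14), while MT-ND3 and MT-CYB fell (-0.14 and -0.12). Apart from ATP5MC1, every member called in experiment 2 alone had a log2 fold change between -0.43 and 0.21.

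**Figure D5:**
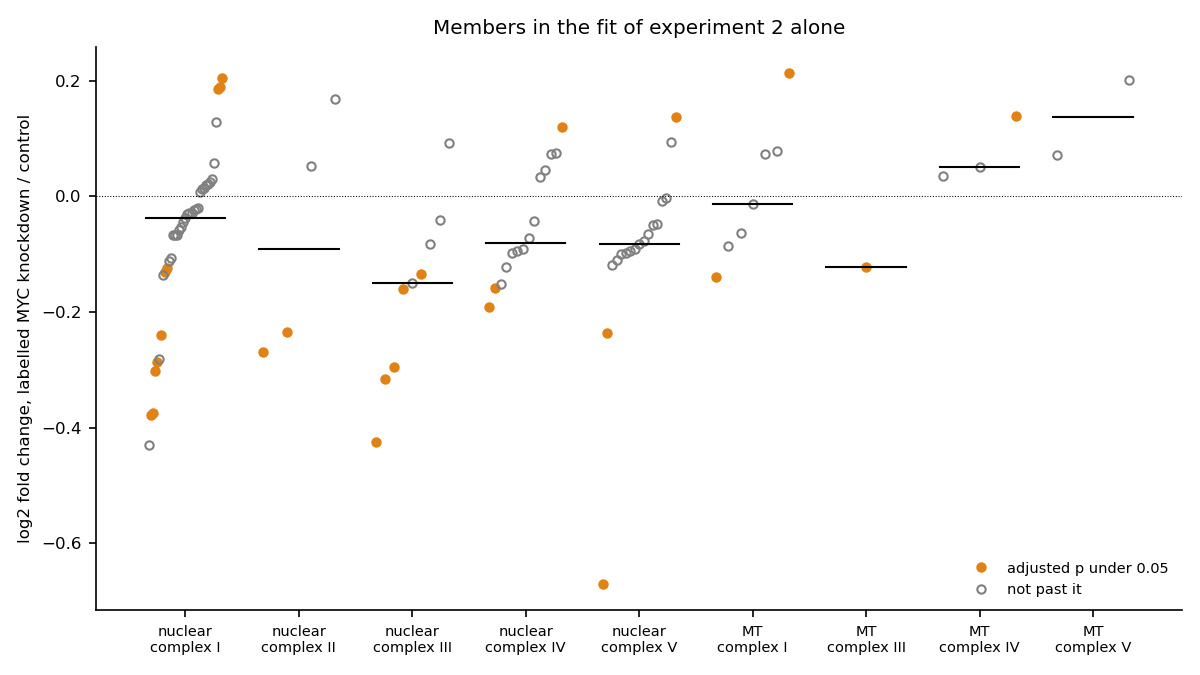
log2 fold change of 94 members in MYC-labelled libraries against controls, from the fit of experiment 2 alone, by genome and complex. Filled points have an adjusted p under 0.05 (27 of 94, where 44.5% of all genes passed), bars are medians. ATP5MC1, at -0.67, lies lowest, and the nuclear medians of complexes I to V are all below 0.

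The genes that serve the chain were read from 5 lists written with earlier results of these data known. After PHF10 knockdown, 2 of 50 assembly factors passed the threshold in the fit of all libraries, 1 in each direction, beside a background of 6.34%. COA3, which acts in the synthesis and assembly of MT-CO1, had 32.3, 40.2, 43.7 and 35.4 CPM in PHF10 knockdown libraries, against 22.2 and 25.9 CPM in controls of experiment 1, and rose (log2 fold change 0.66, SE 0.14, adjusted p = 0.0281). TTC19, an assembly factor of complex III, had 48.8, 47.7, 52.4 and 56.6 CPM in PHF10 knockdown libraries, against 66.5 and 73.6 CPM in controls, and fell (log2 fold change -0.45, SE 0.10, adjusted p = 0.0324). Without control replicate 1 or 2, COA3 had an adjusted p of 0.193 or 0.111 and TTC19 of 0.0984 or 0.247. Both also missed the threshold without any 1 library of experiment 2 (adjusted p of 0.0604 to 0.0669 for COA3 and 0.0744 to 0.0794 for TTC19), and TTC19 without PHF10 knockdown replicate 2 (adjusted p = 0.0518).

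Of 14 regulators of respiratory genes, 1 rose and 1 fell, beside the background of 6.34%. NFE2L2, an antioxidant response factor, had 62.6, 68.0, 63.4 and 63.5 CPM in PHF10 knockdown libraries, against 107 and 104 CPM in controls, and fell (log2 fold change -0.71, SE 0.087, adjusted p = 0.00352). It passed the threshold with each library left out in turn (adjusted p of at most 0.0366) and had an adjusted p of 0.0593 in experiment 1 alone. GABPB2, a beta subunit of the ETS factor GABP, had 20.8, 24.2, 19.9 and 17.5 CPM in PHF10 knockdown libraries, against 13.1 and 11.0 CPM in controls, and rose (log2 fold change 0.77, SE 0.15, adjusted p = 0.0184). Without control replicate 1 or 2 its adjusted p was 0.0741 or 0.174.

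Of 29 electron carrier and exchange genes, ETFDH rose and COQ8A fell, beside the background of 6.34%. ETFDH, which hands electrons from fatty acid oxidation to ubiquinone, had 17.6, 19.7, 17.5 and 18.3 CPM in PHF10 knockdown libraries, against 11.9 and 11.8 CPM in controls (log2 fold change 0.63, SE 0.12, adjusted p = 0.0170). COQ8A, needed for coenzyme Q synthesis, had 53.2, 50.7, 62.8 and 57.6 CPM in PHF10 knockdown libraries, against 75.2 and 90.2 CPM in controls (log2 fold change -0.56, SE 0.12, adjusted p = 0.0284). Without control replicate 1 or 2 the adjusted p was 0.116 or 0.138 for ETFDH and 0.0696 or 0.249 for COQ8A, and without any 1 library of experiment 2 it was 0.0550 to 0.0662 for COQ8A.

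Of 34 genes of mitochondrial DNA and RNA upkeep, 0 rose and 1 fell, beside the background of 6.34%. It was MGME1, an exonuclease of mitochondrial DNA (log2 fold change -0.46, SE 0.11, adjusted p = 0.0450). MGME1 had 30.1, 39.1, 36.6 and 34.4 CPM in PHF10 knockdown libraries, against 49.6 and 46.7 CPM in controls, and without control replicate 1 or 2 its adjusted p was 0.208 or 0.175. It was 0.0523 and 0.0724 without PHF10 knockdown replicates 3 and 4, and 0.0959 to 0.101 without any 1 library of experiment 2. Of the 22 genes of the citric acid cycle 0 passed, with 3 higher and 2 lower at an unadjusted p under 0.05. IDH2 had the smallest p (log2 fold change -0.67, SE 0.20, adjusted p = 0.0783).

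In MYC-labelled libraries, 0 genes of the 5 lists passed in the fit of all libraries. In experiment 2 alone, 44.5% of all genes were called, 21.9% higher and 22.6% lower. Of 34 genes of mitochondrial DNA and RNA upkeep 1 rose and 20 fell, and of 50 assembly factors 4 rose and 17 fell. Of 29 carrier genes 3 rose and 14 fell, and of 22 genes of the citric acid cycle 3 rose and 7 fell. Of the 14 regulators 4 rose and 2 fell. Their median log2 fold change in the fit of all libraries was 0.01, with 7 of 14 above 0. SLIRP, which stabilises mitochondrial mRNAs, fell in that fit (log2 fold change -0.60, SE 0.062, adjusted p = 1.65e-11), as did SSBP1, which binds single-stranded mitochondrial DNA (log2 fold change -0.49, SE 0.049, adjusted p = 5.89e-12). CYCS, cytochrome c, fell as well (log2 fold change -0.31, SE 0.044, adjusted p = 4.79e-08). In the fit of all libraries these 3 had adjusted p of 0.174, 0.256 and 0.317. COA3 had a log2 fold change of 0.47 in experiment 2 alone (SE 0.067, adjusted p = 5.22e-08) and of 0.46 with all libraries (adjusted p = 0.255).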

How the data were processed

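Messenger RNA of A375 cells was sequenced as single reads of 100 nt from poly(A)-selected, directional libraries, per the labels' protocols. Per the submitters' processing notes, cutadapt and STAR were used with the builds GRCh38.p13 and hg38. For tool versions and gene annotation, nothing is given in the sources used here. Each deposited file lists raw counts of reads per gene in 3 columns, unstranded and for each strand. Multimapping reads (4.98% to 6.36%), which include reads shared with pseudogenes, and reads in several genes (2.98% to 3.48%) were counted for no gene in the deposited counts.

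The column for the opposite strand of the read was used, and the same-strand column held 5.26% to 5.55% of stranded gene reads. Reads in no gene on the counted strand, in several genes, at several places or unaligned, 19.1% to 23.6% of a library, stayed out of library sizes. Symbols and positions came from a table of gene names and GENCODE release 29 (GRCh38). Counts went into edgeR 4.0.16 under R 4.3.3 (robust quasi-likelihood, TMM factors, filterByExpr on the groups) with all 10 libraries as 4 group means (6 residual degrees of freedom, 18450 genes). Adjusted p-values are Benjamini-Hochberg over all genes tested, with a threshold of 0.05. CPM are counts over TMM-scaled library sizes, and list means are of log2 CPM with a prior count of 2. The opposite-strand reads were fitted in the same way over 8269 features, scaled by the library sizes of the main column, as an alternative added after seeing the data, like the fit of experiment 1 alone with the interferon covariate.

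Across genes, Pearson's r between replicates was 0.961 to 0.995. By the mean chi-square per gene (2.26 to 136, where 1 is sampling noise), every pair differed by more than sampling noise. The median per gene was 3.79 to 9.09 in experiment 1. It was 1.10 for the MYC-labelled pair and 0.816 for the control pair of experiment 2. The reference of 1 is for the mean and not for the median, which lies below 1 under sampling noise alone. Members, lists and tests were chosen with earlier results of these data known. Named genes were the 13 mitochondrial mRNAs, members past a threshold, per complex the 3 nuclear members with the smallest p in each knockdown, tissue-specific isoforms with their counterparts, and up to 4 called genes per list (the 2 smallest p where none was called), with some left out for length. Members called in experiment 2 alone were added after their values were seen. Alternatives were DESeq2 1.42.0, limma-voom (limma 3.58.1), RLE factors, library sizes without mitochondrial genes, each experiment by itself, no filter, a filter of 1 CPM in 4 libraries, unstranded reads, an interferon covariate, a replicate block and each library left out.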

Additional observations from a re-analysis of the deposited data

How the results depend on the processing

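The count of 0 members called after PHF10 knockdown became 1 in DESeq2 (COX7B2, higher), 2 without a filter (COX6B2 higher, MT-ND6 lower) and 2 with the interferon covariate (COX7B2 higher, MT-ND6 lower). For MYC-labelled libraries the count of 0 became 27 in experiment 2 alone, 1 without a filter and 1 with the interferon covariate (ATP5MC1, lower, in both). For the difference between the knockdowns it became 1 without a filter (COX6B2). The cause was not tested. For DESeq2, no filter, the interferon covariate and the replicate block, the share of all genes called is not given here. The members added by these fits thus have no background beside them. In experiment 2 alone the background was 44.5%. All 3 counts were 0 to 0 when each library was left out and 0 under limma-voom, RLE factors, library sizes without mitochondrial genes, the stricter filter and the unstranded column. The mitochondrial minus the nuclear median was 0.06 for PHF10, with a range of -0.05 to 0.18 over left-out libraries and -0.09 with the replicate block. Its sign thus depended on the setting. The difference of the class means per library had an SD within groups of 0.22, larger than the value itself. For the MYC label the median difference was 0.12, with a range of 0.11 to 0.14 over left-out libraries and an SD of 0.019. Under every alternative run it moved by less than this SD in both comparisons.

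With the replicate number as a block, 1 member was called after PHF10 knockdown (MT-ND6, log2 fold change -0.96, adjusted p = 0.0276), and the nuclear and mitochondrial medians were -0.11 and -0.20. The deviations of same-numbered libraries from their group means had correlations of 0.48 and -0.30 in experiment 1 and of -0.03 and -0.03 in experiment 2. In a group of 2 libraries these deviations mirror each other, so that the 2 values of experiment 2 are the same by construction. The correlations cannot decide whether the numbers pair the samples.

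Of 2024 recomputed values of 99 gene results, 1947 kept their side of the threshold, 51 lost it, 26 gained it and 0 reversed a called direction, while 98 uncalled values changed sign. Of the 51, all were among the 7 genes of the lists, and NFE2L2 lost its call in experiment 1 alone. Opposite-strand reads of MT-ND1 were called with own TMM factors, limma-voom and the interferon covariate, the last with MT-ND4, MT-ND4L and MT-ND5 beside it. Over all features, 145 were called in the main fit of these reads, 152 with own TMM factors and 126 with limma-voom. With the interferon covariate 404 were called, so that the calls rose over all features as well.

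With 2 controls per experiment and 1 spread shared by all 10 libraries, no mitochondrial mRNA had a 95% interval within 0.5 of 0 on the log2 scale in either comparison. In the MYC-labelled comparison, MT-ND4 for example had an SE of 0.24 in this fit and of 0.039 in experiment 2 alone.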

Other observations

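The controls of the 2 experiments differed from each other. PHF10 had 124 and 125 CPM in controls of experiment 2, against 40.1 and 36.6 CPM in controls of experiment 1. The median log2 difference of the members between these controls was -0.09 for nuclear and -0.19 for mitochondrial members, beside -0.0025 for all genes tested. MT-ND6 had 144 and 165 CPM in controls of experiment 2, against 146 and 248 CPM in controls of experiment 1. COX7B2 had 7.14 and 6.12 CPM in controls of experiment 2, against 9.66 and 10.4 CPM in controls of experiment 1. The experiment and anything else that differed between these cultures cannot be told apart.

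The 195 pseudogenes that share the prefixes held 7323 reads over all libraries, beside 1964716 reads of the nuclear members.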
